A study of Homo sapiens with 3 samples.

Results

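Binding of MECOM at homeobox genes outside the HOX clusters was examined in HEK293T, an established cell line derived from human embryonic kidney. The 55 genes named for this purpose cover the TALE, DLX, LIM, ZFHX, NK-like, HOX-like, paired-like, CUT and SATB and SINE families, and a peak belonged to them when the deposited annotation gave one of their symbols as its gene. By that rule 20 of the 55 genes had a peak, 23 peaks in all, out of 3462 peaks in the list. MECOM, also known as EVI1, is a zinc finger transcription factor that is overexpressed in some myeloid leukaemias. The series, on MECOM in leukaemia and mast cells, holds 3 HEK293T libraries of chromatin immunoprecipitation with sequencing, 1 each from cells given the empty pMYS vector, wild-type MECOM or MECOM R750W. Precipitation in each library used an antibody to the AM tag, a short peptide joined to MECOM. Only the wild-type list was analysed here, and its link to that library rests on its name. Signal of the tag antibody without MECOM and the R750W form were therefore not compared, no value has a replicate, and no expression data were used here, so neither the cells nor the genes were checked against it.

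Homeobox genes encode transcription factors that share the homeodomain, a DNA-binding fold that mostly recognises short sites with a TAAT core. The HOX clusters hold the genes that pattern the body axis, whereas the genes described here lie elsewhere in the genome and act in organ, limb, brain and muscle development. TALE proteins such as MEIS, PBX and PKNOX bind DNA together with HOX proteins, and MEIS1 is known as a partner of HOXA9 in leukaemia.

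Stretches around gene starts that a peak overlapped are shown first. Not every such peak reaches the start itself. The peaks at ZFHX2, MEIS2, NKX2-2 and LHX8 are not among the 23, because they were assigned to other genes. RefSeq promoter windows (GRCh38.p14, from 250 bases before a start to 50 after it) were matched by symbol for 39 of the 55 genes, with 60 windows. The windows covered 12 of the 20 genes with an assigned peak. BARX2 and DLX5, whose peaks lay across a start, had no window and so are not shown. A peak overlapped 10 of the 60 windows. The 6 with the highest peaks follow, each read 5′ to 3′ along the gene's own strand with the bases inside the peak in capitals.
MEIS3, chr19:47422184-47422483, strand -: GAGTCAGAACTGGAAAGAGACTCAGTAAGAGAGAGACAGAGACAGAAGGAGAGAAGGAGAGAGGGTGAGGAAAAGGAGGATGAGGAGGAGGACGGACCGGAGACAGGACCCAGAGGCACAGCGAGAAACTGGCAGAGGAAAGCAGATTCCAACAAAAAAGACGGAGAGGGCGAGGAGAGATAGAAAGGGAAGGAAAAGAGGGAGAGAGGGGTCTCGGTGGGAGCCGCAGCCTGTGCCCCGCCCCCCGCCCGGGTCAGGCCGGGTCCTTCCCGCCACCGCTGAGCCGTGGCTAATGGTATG
ZFHX2, chr14:23551716-23552015, strand -: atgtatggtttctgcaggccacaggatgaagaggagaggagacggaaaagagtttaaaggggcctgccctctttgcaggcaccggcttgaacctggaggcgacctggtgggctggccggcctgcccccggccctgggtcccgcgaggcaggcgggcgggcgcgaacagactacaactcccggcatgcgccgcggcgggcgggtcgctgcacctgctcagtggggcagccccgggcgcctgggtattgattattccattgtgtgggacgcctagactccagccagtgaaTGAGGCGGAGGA
LHX9, chr1:197915824-197916123, strand +: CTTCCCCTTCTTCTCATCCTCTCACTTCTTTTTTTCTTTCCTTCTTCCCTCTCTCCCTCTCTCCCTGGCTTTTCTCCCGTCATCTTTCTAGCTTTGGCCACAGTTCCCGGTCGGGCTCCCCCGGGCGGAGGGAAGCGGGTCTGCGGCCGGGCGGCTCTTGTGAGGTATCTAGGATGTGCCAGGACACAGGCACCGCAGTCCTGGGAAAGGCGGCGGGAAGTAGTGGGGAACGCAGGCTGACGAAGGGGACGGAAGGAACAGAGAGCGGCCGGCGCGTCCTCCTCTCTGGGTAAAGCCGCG
ISL1, chr5:51383198-51383497, strand +: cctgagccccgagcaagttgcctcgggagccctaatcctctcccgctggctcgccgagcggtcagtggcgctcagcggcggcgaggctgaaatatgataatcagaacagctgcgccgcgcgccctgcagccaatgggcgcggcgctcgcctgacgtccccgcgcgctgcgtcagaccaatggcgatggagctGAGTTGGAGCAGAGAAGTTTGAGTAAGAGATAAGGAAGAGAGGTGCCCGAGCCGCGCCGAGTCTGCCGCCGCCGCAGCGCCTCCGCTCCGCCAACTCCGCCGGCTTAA
MEIS2, chr15:37098647-37098946, strand -: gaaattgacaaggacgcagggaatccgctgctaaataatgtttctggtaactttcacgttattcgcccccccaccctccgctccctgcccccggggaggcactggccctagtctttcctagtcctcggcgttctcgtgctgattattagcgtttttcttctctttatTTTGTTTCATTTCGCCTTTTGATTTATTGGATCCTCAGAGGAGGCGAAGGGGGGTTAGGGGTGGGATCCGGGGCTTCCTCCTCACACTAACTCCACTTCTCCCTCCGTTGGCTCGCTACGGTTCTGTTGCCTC
NKX2-2, chr20:21522640-21522939, strand -: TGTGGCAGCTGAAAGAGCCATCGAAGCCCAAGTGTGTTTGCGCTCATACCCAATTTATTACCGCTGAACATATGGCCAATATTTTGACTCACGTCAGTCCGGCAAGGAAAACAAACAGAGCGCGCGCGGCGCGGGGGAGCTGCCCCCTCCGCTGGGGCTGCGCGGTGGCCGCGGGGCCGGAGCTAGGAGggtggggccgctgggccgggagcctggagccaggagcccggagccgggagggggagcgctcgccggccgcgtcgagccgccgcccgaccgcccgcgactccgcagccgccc
The peaks covered all 300 bases of the MEIS3 and LHX9 windows, 189 of NKX2-2, 133 of MEIS2, 108 of ISL1 and 12 of ZFHX2. The other 4 windows with a peak belonged to PBX3 (209 bases covered), DLX1 (94), LHX8 (23) and ZFHX3 (12). The LHX9, MEIS2, ZFHX2, PBX3, ZFHX3 and LHX8 windows surround starts other than the outermost start of the gene.

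Among all 20037 protein-coding genes, 9.93% were assigned a peak, against 36.4% of the 55 genes (20 genes, exact 95% binomial interval 23.8 to 50.4). The interval takes genes as independent draws, which neighbouring genes such as the DLX pairs are not, and the genes were chosen with earlier results of these data known, so the shares are set side by side without a test. By family, peaks fell on 4 of 11 TALE genes, 3 of 6 DLX genes, 3 of 9 LIM genes and 2 of 3 ZFHX genes. They also fell on 4 of 10 NK-like genes, 3 of 6 HOX-like genes and 1 of 6 paired-like genes. None of CUX1, CUX2, SATB1 and SIX3 was assigned one. At a q of at most 1e-05, 12 of the 55 genes kept a peak (21.8%) against 5.52% of protein-coding genes. Among peaks at or above the median enrichment of the list, the counts were 10 genes (18.2%) and 5.03%.

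**Figure D1:**
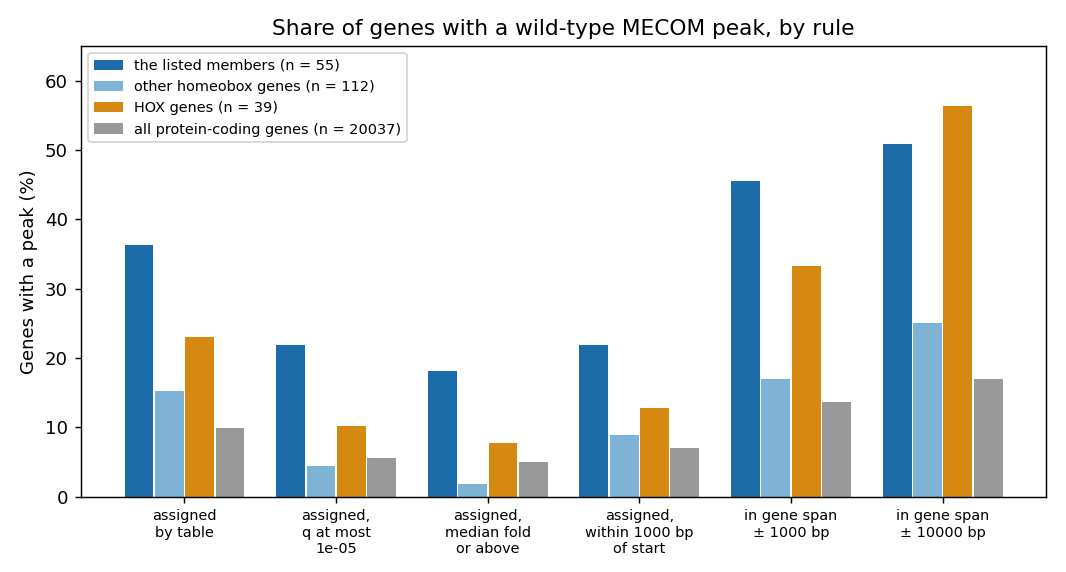
Share of genes (%, vertical axis) with a wild-type MECOM peak under 6 rules (horizontal axis) for the 55 genes described here, 112 other homeobox genes outside the HOX clusters, 39 HOX genes and 20037 protein-coding genes. The bars are plain shares of genes from 1 library without error; the 55 genes stand at 36.4% by the deposited assignment against 9.93% of all genes, and at 50.9% against 56.4% of HOX genes when the gene span is widened by 10000 bp.

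Height is given below as the deposited fold enrichment, the ratio of fragments at the highest point of a peak to the local background after 1 is added to each. Its exact 95% Poisson interval, in parentheses, covers counting error of the precipitated fragments only. Coordinates are those of the hg38 build. The TALE genes held both the highest and the lowest of the 23 peaks. MEIS3, a MEIS-type partner of HOX and PBX proteins, had the highest, on chromosome 19 from 47421856 to 47422947, with 22 fragments over a background of 1.83 (8.13-fold, 5.23 to 12.1). It was also the widest of the 23, at 1092 bp, and 97.2% of the list's peaks were lower. The deposited table put this peak 2333 bp upstream of the MEIS3 start, but the RefSeq gene begins at 47422233, inside the peak. PBX3, a PBX protein that pairs with HOX and MEIS, had a peak on chromosome 9 from 125747608 to 125748141, which began 263 bp inside the gene (4.03-fold, 2.57 to 6.07, 21 fragments). The Iroquois genes IRX5 and IRX6, which act in heart, limb and retina development, had the lowest folds of the 23. The IRX5 peak lay just upstream of its gene on chromosome 16 from 54929892 to 54930375, with 20 fragments over 5.34 (3.31-fold, 2.09 to 5.03). The IRX6 peak lay 389718 bp further along, gene to gene, from 55324761 to 55325042, with 16 fragments over 4.15 (3.3-fold, 1.97 to 5.24). IRX6 had a −log10 q of 2.42, the lowest of the 23.

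DLX genes lie in tail-to-tail pairs and pattern the limbs, jaws, forebrain and bone. Peaks fell on DLX1, DLX2 and DLX5 and on neither gene of the DLX3 and DLX4 pair. The DLX1 peak, on chromosome 2 from 172084787 to 172085350, began 47 bp inside the deposited gene but lay 157 bp upstream of the RefSeq gene. It held 30 fragments, the most of the 23. Its background, 8.30 fragments, was also the highest, so its enrichment was low (3.33-fold, 2.28 to 4.71). The peak assigned to DLX2 lay in the 9764 bp between DLX1 and DLX2, from 172095696 to 172096070, 3369 bp beyond the end of DLX2 (5.21-fold, 3.31 to 7.83, 21 fragments). The DLX5 peak, on chromosome 7 from 97024467 to 97024852, reached across its RefSeq start (3.78-fold, 2.18 to 6.18, 14 fragments). A further peak lay in the 9356 bp between DLX6 and DLX5, from 97016512 to 97017062, and was assigned to an Ensembl gene without a symbol (6.03-fold, 3.70 to 9.35, 18 fragments). Both the DLX1 and DLX2 pair and the DLX5 and DLX6 pair thus had 1 peak at or near a gene start and 1 between the genes. As background, the stretches between paired DLX genes are known to hold conserved enhancers. Whether these peaks lie on one was not examined.

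LIM homeobox proteins combine a homeodomain with zinc-binding LIM domains and specify motor neurons, pancreas, heart and gonad. ISL1, needed in heart and motor neuron precursors, had a peak across its start on chromosome 5 from 51383390 to 51383928 with 29 fragments over 4.76 (5.21-fold, 3.55 to 7.40). Its −log10 q of 9.40 was the second highest of the 23 after the 12.1 of MEIS3. Its relative ISL2 had a peak of 17 fragments upstream of the start on chromosome 15 from 76336198 to 76336510 (4.11-fold, 2.49 to 6.45). The ISL1 and ISL2 intervals overlapped. LHX9, a gonad and limb regulator, had a peak on chromosome 1 from 197915740 to 197916200, 3838 bp inside the gene by the deposited start and across another RefSeq start of the gene (5.34-fold, 3.23 to 8.37, 17 fragments). LHX2 to LHX6 and LHX8 were assigned none.

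The ZFHX genes encode very large proteins with several homeodomains and zinc fingers. ZFHX4 was the only one of the 55 genes with 3 assigned peaks, all upstream of its start on chromosome 8. They lay from 76673959 to 76674256 (5.76-fold, 3.38 to 9.26), from 76678035 to 76678491 (5.93-fold, 3.69 to 9.10) and from 76680729 to 76681186 (5.34-fold, 3.23 to 8.37). Each of the 3 overlapped the antisense gene ZFHX4-AS1. A 4th peak, within ZFHX4 from 76683494 to 76683890, was assigned to ZFHX4-AS1 and was the highest of the group (6.53-fold, 4.15 to 9.82, 21 fragments). The 4 intervals overlapped throughout, so these peaks could not be ranked. ZFHX3 had an assigned peak deep in the gene on chromosome 16 from 73047734 to 73048090, 38 bp from an inner RefSeq start (3.88-fold, 2.32 to 6.16, 16 fragments), and a further peak from 73070468 to 73070887 assigned to a gene without a symbol (5.66-fold, 3.32 to 9.10).

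Of the NK-like genes, EN1, the engrailed factor of midbrain and limb, had 2 peaks on chromosome 2. The peak within the gene, from 118847053 to 118847345, was the second highest of the 23 (5.98-fold, 3.57 to 9.49, 16 fragments). The other, from 118855376 to 118855657, lay 7698 bp upstream (5.05-fold, 3.10 to 7.82). MSX1, a factor of tooth and palate development, had a peak 733 bp inside the gene on chromosome 4 from 4860399 to 4860664 (5.26-fold, 3.23 to 8.16). BARX2 had a peak of 943 bp across its start on chromosome 11 from 129375136 to 129376078 (5.04-fold, 3.01 to 8.0). NKX6-1, a pancreatic beta cell factor, had a peak on chromosome 4 from 84498791 to 84499055 (3.95-fold, 2.39 to 6.19), upstream of the deposited gene but within the RefSeq gene. The 5 NK-like peaks held 16 to 18 fragments each and did not separate by height.

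Of the HOX-like genes, CDX1 and CDX2, regulators of intestinal identity, and GBX1 each had a peak. That of CDX1 lay 4071 bp upstream on chromosome 5 from 150162456 to 150162724 (5.31-fold, 3.12 to 8.55, 15 fragments). That of CDX2 lay inside the gene on chromosome 13 from 27966881 to 27967159 (4.61-fold, 2.90 to 7.0, 20 fragments). That of GBX1, on chromosome 7 from 151168148 to 151168428, was inside the deposited gene and 454 bp upstream of the RefSeq gene (4.42-fold, 2.97 to 6.36, 27 fragments). ALX1, a factor of craniofacial development, was the only paired-like gene with a peak, just inside its start on chromosome 12 from 85280273 to 85280877 (5.34-fold, 3.23 to 8.37). The ALX1 peak, the LHX9 peak and the ZFHX4 peak nearest its start shared the same 17 fragments over 2.37, so their folds were equal.

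**Figure D2:**
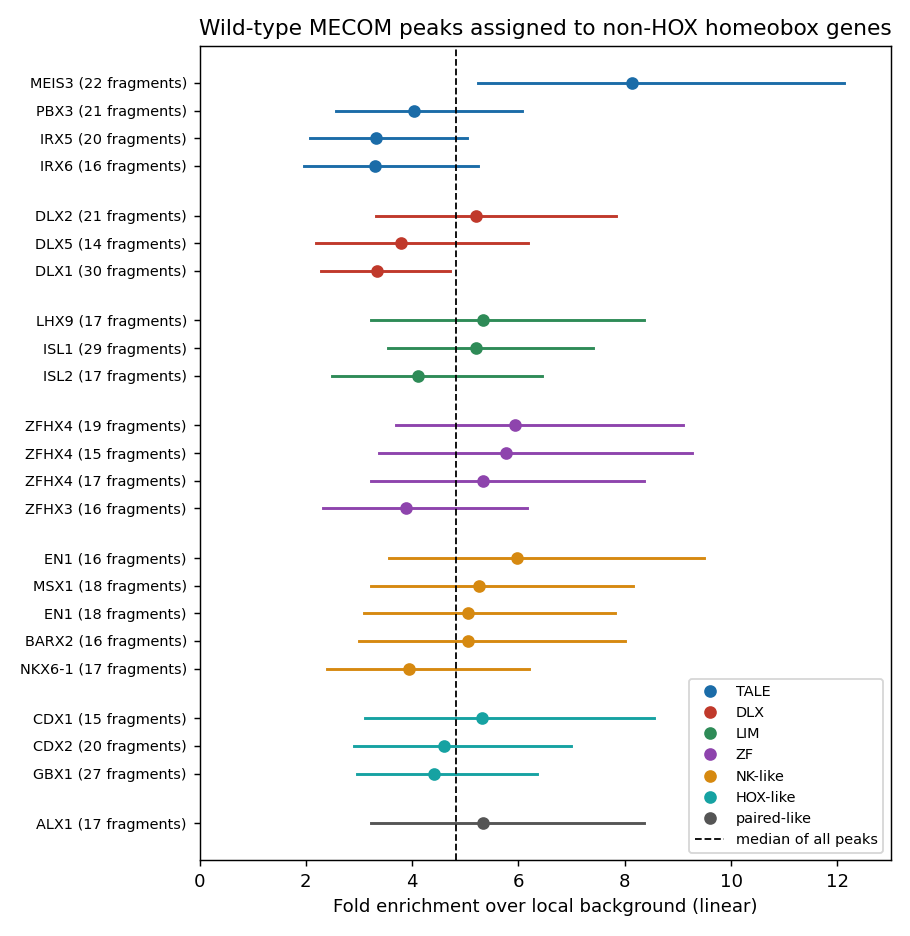
Fold enrichment (horizontal axis, linear) of the 23 peaks assigned to the genes, grouped and coloured by family, with points at the deposited fold and bars for the exact 95% Poisson interval. The dashed line is the median of all peaks, 4.82; the interval of MEIS3 lies wholly above it, that of DLX1 wholly below it, and the other 21 hold it.

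The heights of the 23 peaks spread around the median of the list. Their median enrichment was 5.05 (quartiles 3.99 and 5.34) against 4.82 (4.07 and 5.67) for the 3396 other assigned peaks. Of the 23 peaks, 13 were at or above the list median and 10 below it. The intervals of 21 held the list median, that of MEIS3 lay above it and that of DLX1 below it. For comparison, 184 of 3419 assigned peaks had an interval wholly above the median and 158 wholly below, each taken alone without adjustment. Of the 253 pairs that the 23 peaks form, the intervals were separate in 2, MEIS3 above DLX1 and above IRX5. The order of the other members was therefore not resolved at this depth.

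The depth behind each peak was small. The peaks held 14 to 30 fragments (median 17) against a median of 18 in the other assigned peaks. Background ran from 1.78 to 8.30 fragments with a median of 2.96, against 2.92. None of the 23 had the list's minimum background of 1.70 fragments, at which 422 of all 3462 peaks (12.2%) stood. Width ran from 265 to 1092 bp with a median of 375 bp, against 415.5 bp (median) in the others.

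**Figure D3:**
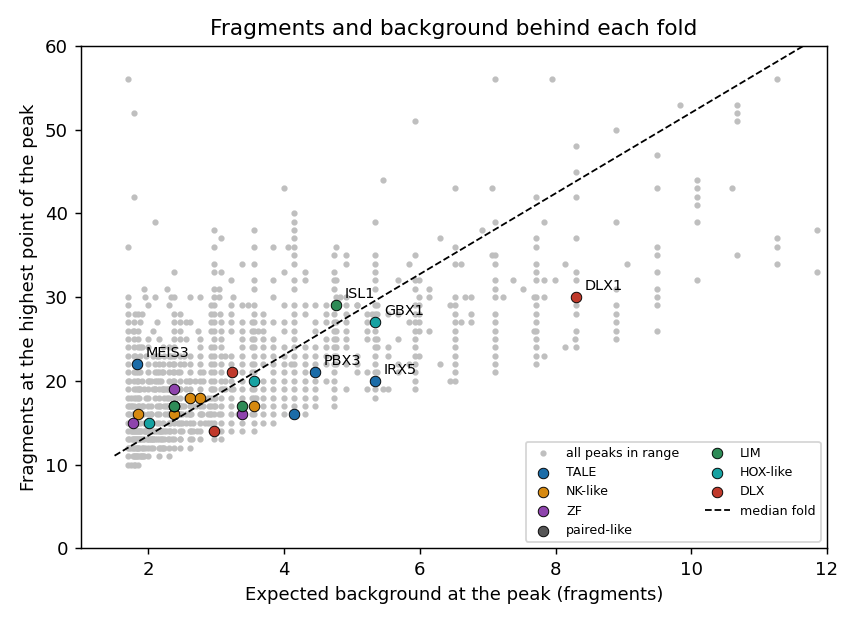
Fragments at the highest point of each peak (vertical axis) against the expected background in fragments (horizontal axis), with all other peaks in range in grey and the 23 peaks coloured by family. The dashed line marks the median fold of 4.82; MEIS3 lies above it with 22 fragments over 1.83, DLX1 below it with 30 over 8.30, and the points of ALX1, LHX9 and 1 ZFHX4 peak coincide.

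By the deposited annotation, 11 of the 23 peaks lay inside the gene, 9 upstream, 1 downstream (DLX2) and 2 across the start (ISL1 and BARX2). Peaks across a start made up 8.70% of the 23 (1.07 to 28.0) and 19.8% of the other assigned peaks. The first base of the peak lay within 1000 bp of the deposited start in 12 of 23 peaks (52.2%, exact binomial interval 30.6 to 73.2). The share was 55.7% in the other assigned peaks and 67.5% in the 2138 peaks of other protein-coding genes. Those 12 peaks belonged to 12 genes, or 21.8% of the 55, against 7.06% of protein-coding genes with such a peak. All of the 23 but the ZFHX3 peak, at 11964 bp, began within 10000 bp of the deposited start, against 80.9% of the others. The place of several peaks depended on which start was used. When the nearer edge of the peak was measured to any start in the deposited table or RefSeq, 17 of 23 peaks (73.9%, 51.6 to 89.8) lay within 1000 bp, against 79.8% of the 2138 peaks of other protein-coding genes. By the same measure 5 of 23 peaks (21.7%, 7.46 to 43.7) lay across a start, those of MEIS3, LHX9, DLX5, ISL1 and BARX2, against 33.4% of the 2138. The 5 that moved within 1000 bp were those of MEIS3, LHX9, ZFHX3, GBX1 and IRX6. The 6 that stayed outside were those of CDX1, CDX2 and DLX2, the upstream EN1 peak and the outer 2 of ZFHX4.

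**Figure D4:**
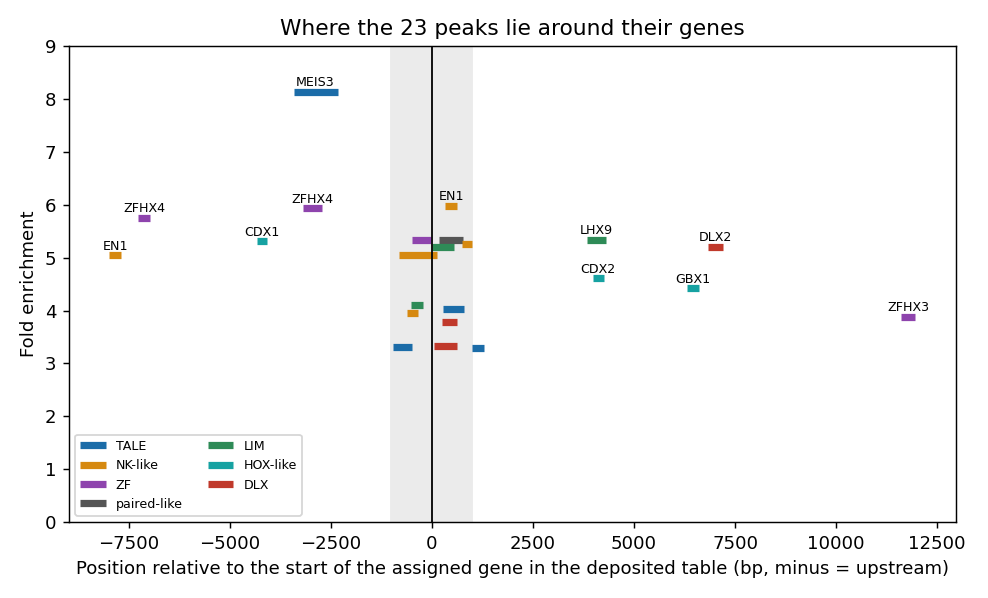
Extent of each of the 23 peaks relative to the deposited start of its gene (horizontal axis, bp, minus for upstream) against fold enrichment (vertical axis), coloured by family. The grey band marks 1000 bp to either side of the start; MEIS3 stands highest at 8.13-fold upstream of it, and ZFHX3 lies farthest, 11964 bp inside its gene.

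The deposited assignment also left out peaks that lay on the genes themselves. When any peak in the RefSeq gene span or within 1000 bp of it was counted, 25 of the 55 genes had a peak (45.5%, 32.0 to 59.4), against 13.7% of protein-coding genes. The 7 genes gained were MEIS1, MEIS2, LHX8, ZFHX2, NKX2-2, CUX1 and SATB1. CDX1 and DLX2 were lost, because their peaks lay 4054 and 3368 bp from the span. The MEIS1 peak, on chromosome 2 from 66435244 to 66435643, began 119 bp into the gene, which starts at 66435125, and was assigned to ENSG00000226819 (4.97-fold, 3.13 to 7.55, 20 fragments). The MEIS2 peak, on chromosome 15 from 37098482 to 37098779, lay inside the gene and was assigned to ENSG00000259460 (4.54-fold, 2.75 to 7.12). With MEIS3, each of the 3 MEIS genes therefore had a peak in its span, while of the PBX and PKNOX genes only PBX3 did.

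The NKX2-2 peak, near the start of this neural tube and pancreas factor, lay 62 bp outside the gene on chromosome 20 from 21522751 to 21523203 (4.45-fold, 2.57 to 7.26, 14 fragments). Both members of the CUT and SATB group that gained a peak had it well inside the gene. CUX1 held one on chromosome 7 from 101856742 to 101857069 (5.98-fold, 3.57 to 9.49). SATB1, a chromatin organiser of T cells, held one on chromosome 3 from 18425672 to 18426188 (5.34-fold, 3.5 to 7.83, 24 fragments). The SATB1 peak lay upstream of an inner RefSeq start, whose promoter window runs from 18425290 to 18425589. The ZFHX2 peak, on chromosome 14 from 23550656 to 23551727, overlapped THTPA as well and was assigned to it (7.12-fold, 4.62 to 10.5, 23 fragments). The LHX8 peak was weak, on chromosome 1 from 75134415 to 75134741 (3.43-fold, 1.98 to 5.59). Except that of ZFHX2, the peaks of the 7 genes gained were assigned to Ensembl genes without a symbol.

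No peak lay within 10000 bp of the other 27 genes. Their nearest peak was 31497 bp (IRX4) to 1461334 bp (ALX4) away, with a median of 223494 bp, and for 19 of them it was over 100000 bp away. They included PBX2, PBX4, PKNOX1 and PKNOX2 of the TALE genes, DLX3 and DLX4, LHX2, LHX3, LHX4, LHX5 and LHX6, and NKX2-1, NKX2-5, MSX2, BARX1 and EN2. They also included GSX1, GSX2 and GBX2, the paired-like genes PITX1, PITX3, OTX1, OTX2 and ALX4, and CUX2 and SIX3. An unlisted gene shows no more than that no peak passed the caller's threshold there in this library.

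Other homeobox genes were counted for comparison. Of 112 such genes outside the HOX clusters (without the POU and CERS genes), 17 were assigned a peak, or 15.2% (9.10 to 23.2), with 19 peaks. Examples were VAX2 (5.68-fold), SHOX2 (4.75) and PAX6 (4.57). The median enrichment of these peaks was 4.29, and 2 of the 19 peaks were at or above the list median. Of the 39 HOX genes, 9 were assigned a peak (23.1%, 11.1 to 39.3), with 10 peaks of median 4.43-fold. When the gene span was widened by 10000 bp, 28 of the 55 genes (50.9%), 28 of the 112 (25%) and 22 of the 39 HOX genes (56.4%) held a peak, against 17% of protein-coding genes. HOX genes lie close together, at a median of 1329 bp from the nearest other protein-coding gene, so that such widened spans overlap. The difference between the listed and the other homeobox genes was not tested, since the list was drawn up with results known.

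Length and spacing of the genes differed from those of most genes. The median length of the 55 was 9839 bp against 24115 bp for all protein-coding genes, and the nearest other protein-coding gene lay at a median of 16038 bp against 3451 bp. The share assigned a peak moved with this spacing. In all protein-coding genes it was 8.90% with a neighbour under 10000 bp away, 11.4% from 10000 to 100000 bp and 14.5% beyond. In the 55 genes the same classes gave 10 of 24 (41.7%), 5 of 20 (25%) and 5 of 11 (45.5%). The part of spacing in the members' count was not tested.

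Base composition was compared over the promoter windows. The median GC content of the 60 windows was 66.2%, and that of 22199 windows of protein-coding genes was 62.3%. The ratio of observed to expected CpG was 0.80 and 0.74 (medians). For genes with an assigned peak the windows had a median GC content of 65%, and for those without, 67%. A peak overlapped 10 of the 60 windows (16.7%) and 5.69% of all protein-coding windows. The windows shown above ran from 53.0% GC in MEIS2 to 69.7% in NKX2-2.

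The windows were searched on both strands for 3 short words. AGATAA is of the kind read by GATA factors and by the first zinc fingers of MECOM. GATGAG comes from the site of the other set of MECOM fingers. TAATTA is a homeodomain core, and its first letters can overlap the last letters of the GATA-type word. That word was found in 1 of the 10 windows with a peak, that of ISL1, at base 220 of the window and inside the peak. It was present in 7.91% of protein-coding windows and in 4.27% of those with a peak. GATGAG was found in 2 of the 10, at base 79 of the MEIS3 window and, on the other strand, at base 13 of the LHX9 window, both inside the peak. It was present in 10.3% of protein-coding windows and in 10.4% of those with a peak. TAATTA was in none of the 10, and in 3.39% of protein-coding windows. Positions count from 1 at the 5′ end of the printed window. These are matches of letters within 300 bases, and the rest of each peak was not searched.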

How the data were processed

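The deposited annotated peak list of the wild-type library was used. It has no header, so columns were identified from their values. The submitters' processing notes list HOMER 4.10, ChIPseeker 1.18.0, Bowtie2 2.4.2, deepTools (3.5.1.0.0, 3.3.2.0.0), MACS2 2.1.1.20160309.6 and the hg38 build; no role is given for any of them there. The deposited fold enrichment divides fragments by local background, as a ratio, and the deposited −log10 p-value, −log10 q-value and score are those of the authors' peak caller. The deposited distance runs from the first base of a peak to the start of the assigned gene. Lists for the other 2 libraries and total reads were not used here.

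Of 3465 lines, 3462 were distinct peaks and 3419 had a gene. Fragments and background were recovered by search for a whole number of fragments that, with 1 added to both terms, matched the deposited fold and, by the Poisson tail, the −log10 p to 0.001 (above 1000, to a relative 1e-05). All 3462 peaks and 100% of 500 simulated peaks gave a single solution. Gene spans and promoter windows came from RefSeq (GRCh38.p14); 2249 of 2286 symbols matched, by symbol or synonym. Intervals are exact 95% Poisson or binomial intervals and cover counting error only.

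The genes, lists and alternatives were chosen with earlier results of these data known, and no test was made. All 55 genes are named; full values are given for the 10 highest peaks, peaks within 1000 bp of a start and genes with several peaks, and the remaining members with a peak are added. Of the other homeobox genes the rule took the 5 with the highest peaks; some of these are not reported here. Alternatives were a stricter q, higher peaks, merged neighbours, peaks near a start, RefSeq spans and −log10 q. Python 3.11.15, pandas 2.3.3, numpy 2.4.6, scipy 1.17.1 and matplotlib 3.10.9 were used.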

Additional observations from a re-analysis of the deposited data

How the results depend on the processing

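The deposited assignment gave 20 genes with a peak, 23 peaks, a median enrichment of 5.05 and 17 other homeobox genes. At a q of at most 1e-05 these counts were 12 genes, 15 peaks and 5 other genes. Among peaks at or above the median fold they were 10, 13 and 2, and with peaks within 1000 bp of the start 12, 12 and 10. These settings keep fewer peaks. The share of peaks within 1000 bp of a start rose from 52.2% to 73.9% when any annotated start counted. The median −log10 q was 5.75, on another scale than fold, and 5.33 over all assigned peaks. The other 21 values stayed within 1.5 times for counts, within 1 SD for the median and inside the interval for the share, those with merged neighbours, RefSeq spans and without ZFHX4 included. Settings with ZFHX4 left out, with the nearer peak edge and with any annotated start were chosen after the data were seen. No paired analysis was possible because groups hold 1 library each. With a median of 17 fragments behind a peak, the genes can hardly be ranked.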
